A study of Mus musculus with 24 samples.

Results

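The collagen genes were examined in brain and liver of newborn female mice on 24 single-colour arrays. Probes were taken if they were not controls and the gene name in the scanner file consisted of Col, a number, the letter a and a number. A probe was kept where, in 1 or more of the 6 groups, each of the 4 arrays had it flagged by the scanner software as clearly over background. This gave 84 probes, of which 60 were kept, and 41 gene names, of which 39 were kept out of 19881 kept genes on the array. 1 of the 39 names, Col4a3bp, is an older name of Cert1, which encodes a ceramide transfer protein and not a collagen chain. It was left out of all counts below, so that 38 collagen genes were described. Col10a1, the collagen of hypertrophic cartilage, and Col28a1 were on the array and were not kept.

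G20 mice were serial clones, in which donor cells were taken from the clones of the preceding round, and stood at generation 20. CC mice were cloned from cumulus cells, the somatic cells around the oocyte. NC mice, the controls, were produced by ICSI, in which a sperm is injected into an oocyte. Each group had 4 arrays in brain and 4 in liver, and all animals were neonatal females bred as (C57BL/6 x DBA2) x 129/Sv. The NC and the CC labels gave the same animal names in brain and liver, while all G20 arrays carried 1 source name and were numbered by their titles alone. It is therefore not known whether the G20 arrays came from separate animals, and p-values reflect no more than the variation among these arrays, some of which may be technical.

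Collagens are extracellular proteins of 3 chains wound into a triple helix. Fibril-forming collagens give connective tissue its tensile strength, collagen IV chains form the sheet of basement membranes, FACIT collagens sit on the surface of fibrils, and multiplexins such as collagen XVIII lie in basement membranes and release fragments including endostatin. In liver, collagens are made mainly by stellate cells, portal fibroblasts and endothelium, with collagen XVIII also made by hepatocytes. In brain, they are made mainly by meningeal fibroblasts, vessels and pericytes, and some by neurons.

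Between 62.4% and 70.6% of probes were well above background on brain arrays and between 53.6% and 62.9% on liver arrays, with the CC arrays lowest in each tissue. The number of arrays limits the precision. Each group of each tissue lay on a slide of its own, so that group and slide cannot be told apart. All 8 CC arrays, from brain and liver alike, were read in a scan session of their own, so that CC and session cannot be told apart. Of 6 neuron markers 5 were on the array by name. In brain 5 were kept and in liver 1, and those kept summed to 89.8 to 105 times the array's 75th percentile on G20 brain arrays and to 0.142 to 0.170 on G20 liver arrays. Of 6 hepatocyte markers 4 were on the array by name. In brain 2 were kept and in liver 4, and these summed to 0.194 to 1.78 on G20 brain arrays and to 782 to 949 on G20 liver arrays. The sums rest on different members in each tissue, so that the filter sets part of the gap.

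1 array stood apart for collagens. The second G20 brain array was the lowest of its 4 for 27 of 37 collagen genes measured in brain, with a median log2 deviation of -0.38 from the other 3 arrays, while its median deviation over all genes was 0.05. Col1a1 had a log2 level of 1.97 on that array and 2.51 to 2.95 on the other 3, Col1a2 had 2.59 against 3.05 to 3.47, and Col3a1 had 2.14 against 2.90 to 3.08. The 8 meningeal fibroblast markers summed to 11.4 on it, against 17.6, 18.2 and 19.6 on the other G20 brain arrays and 18.4 to 20.5 on NC brain arrays. Other lists were low on it too. The 2 kept hepatocyte markers, Afp and Ttr, summed to 0.194, against 1.14, 1.78 and 1.36. The 3 kept stellate markers, Reln, Lhx2 and Ngfr, summed to 22.7, against 30.9, 34.8 and 34.7. Lrat, Des and Hand2 were not kept in brain. All 6 summed to 10.7 to 14.5 in G20 liver, so that the brain sum is not read as a measure of stellate cells. Pericyte and endothelial markers, at 8.41 and 13.6, were also the lowest of the 4. Neuron, skeletal muscle and skin markers, at 105, 0.766 and 7.81, were the highest of the 4. Cartilage and bone, mesothelium and smooth muscle markers were neither lowest nor highest on it. Fewer cells of a type and less RNA per cell cannot be told apart in whole tissue, and the part of these cells in the collagen values was not tested. Results that rest on this array are given with and without it where its removal changed a call.

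**Figure D1:**
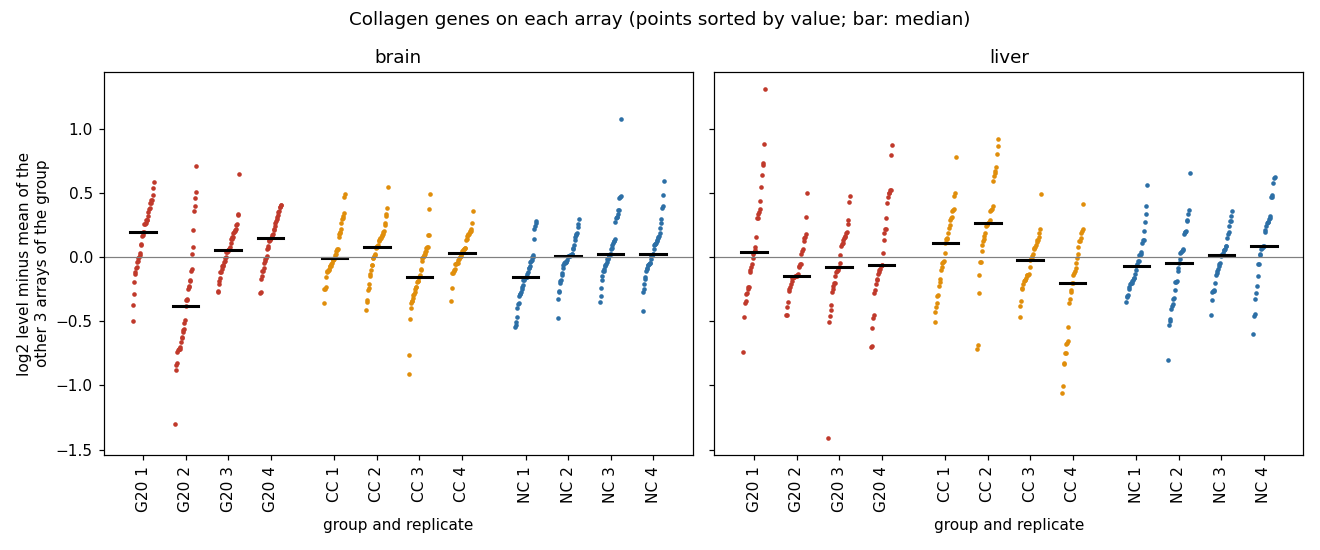
Log2 level of each collagen gene (points) minus its mean on the other 3 arrays of the group, for every array of brain (37 genes) and liver (31 genes), with the median as a bar. The second G20 brain array has a median of -0.38, while the medians of the other 23 arrays lie between -0.20 and 0.26.

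Promoter sequences were taken from RefSeq (GRCm38.p6) for genes on which the results below turn: the Col4a1 and Col4a2 pair, which is transcribed head to head, Col8a1 and Col9a2, which passed the test in G20 liver, Col18a1, the collagen with the largest excess in liver in G20 and NC, and Col19a1, whose tested probe was well above background on every brain array and no liver array. Of the 38 genes, 30 matched a symbol in the table, with 33 windows in all. Each window runs from 250 bases before to 50 bases after the start site, 5′ to 3′ on the gene's strand, and capitals mark CCAAT, the letters bound by the factor NF-Y, and GGGCGG, the GC box bound by Sp1, each on either strand. The TATA box, with the letters TATAAA, was also searched on both strands and was in none of the windows shown.
Col4a1 promoter, chr8:11312777-11313076, minus strand: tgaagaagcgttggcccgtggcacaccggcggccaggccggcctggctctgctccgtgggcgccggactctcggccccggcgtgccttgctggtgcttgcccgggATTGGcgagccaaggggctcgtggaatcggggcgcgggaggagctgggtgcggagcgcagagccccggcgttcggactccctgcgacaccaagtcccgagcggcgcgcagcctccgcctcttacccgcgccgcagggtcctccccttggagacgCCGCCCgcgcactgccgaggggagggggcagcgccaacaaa
Col4a2 promoter, chr8:11312555-11312854, plus strand: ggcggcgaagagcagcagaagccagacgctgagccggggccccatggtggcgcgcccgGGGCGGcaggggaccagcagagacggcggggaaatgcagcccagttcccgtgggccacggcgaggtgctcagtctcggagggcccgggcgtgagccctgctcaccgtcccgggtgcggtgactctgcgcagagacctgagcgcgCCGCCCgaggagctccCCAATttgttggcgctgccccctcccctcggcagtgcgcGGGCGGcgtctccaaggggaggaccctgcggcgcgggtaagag
Col8a1 promoter, chr16:57754688-57754987, minus strand: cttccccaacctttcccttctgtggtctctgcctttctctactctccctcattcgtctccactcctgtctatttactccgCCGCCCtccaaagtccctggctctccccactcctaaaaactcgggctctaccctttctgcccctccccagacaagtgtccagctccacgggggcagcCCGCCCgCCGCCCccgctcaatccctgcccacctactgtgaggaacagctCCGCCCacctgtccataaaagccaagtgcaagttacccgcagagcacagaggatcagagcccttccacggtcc
Col9a2 promoter, chr4:121039316-121039615, plus strand: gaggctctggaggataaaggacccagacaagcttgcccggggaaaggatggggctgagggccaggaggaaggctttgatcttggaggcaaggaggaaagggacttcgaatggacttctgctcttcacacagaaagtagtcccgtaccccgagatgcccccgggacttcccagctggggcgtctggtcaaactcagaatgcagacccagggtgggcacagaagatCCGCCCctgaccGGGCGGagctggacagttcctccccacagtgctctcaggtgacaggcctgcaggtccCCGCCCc
Col18a1 promoter, chr10:77166481-77166780, minus strand: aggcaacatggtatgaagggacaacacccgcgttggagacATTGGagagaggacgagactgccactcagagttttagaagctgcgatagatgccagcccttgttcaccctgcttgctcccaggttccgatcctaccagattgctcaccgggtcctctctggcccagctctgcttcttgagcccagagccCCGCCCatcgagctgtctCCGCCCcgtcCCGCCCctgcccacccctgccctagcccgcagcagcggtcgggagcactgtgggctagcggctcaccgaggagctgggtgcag
Col18a1 promoter, chr10:77113656-77113955, minus strand: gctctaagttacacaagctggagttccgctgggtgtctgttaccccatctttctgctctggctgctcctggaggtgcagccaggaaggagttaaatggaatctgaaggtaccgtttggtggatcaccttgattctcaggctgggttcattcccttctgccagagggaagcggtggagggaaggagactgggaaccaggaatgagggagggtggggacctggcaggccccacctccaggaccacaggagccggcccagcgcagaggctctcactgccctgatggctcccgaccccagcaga
Col19a1 promoter, chr1:24587388-24587687, minus strand: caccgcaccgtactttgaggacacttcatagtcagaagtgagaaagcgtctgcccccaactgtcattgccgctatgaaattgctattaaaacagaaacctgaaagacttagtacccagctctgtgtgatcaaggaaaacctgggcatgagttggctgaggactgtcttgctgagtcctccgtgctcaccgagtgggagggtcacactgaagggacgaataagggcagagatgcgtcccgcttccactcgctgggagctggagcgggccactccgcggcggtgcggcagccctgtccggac

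The Col4a1 and Col4a2 start sites lay 21 bases apart, and their windows shared 78 bases read in opposite directions. GGGCGG stood in 20 of the 33 collagen windows (60.6%), against 35.7% of all 32851 windows in the table. CCAAT stood in 12 (36.4%), against 37.4% of all windows, and TATAAA in 4 (12.1%), against 13.6% of all windows. The GC content of the windows shown ran from 56.3% in Col19a1 to 74.0% in Col4a1. The 33 collagen windows ran from 37.7% to 75%, with a median of 60%, beside a median of 52.7% over all windows. The GC box is itself made of G and C alone. No motif of the 3 was found in the second Col18a1 window or the Col19a1 window. A match is a run of letters in this window and no more.

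The collagens divided between the tissues. Levels are log2 values relative to the array's 75th percentile, and differences between groups were tested with limma with Benjamini-Hochberg adjustment over all genes, a gene being called at an adjusted p under 0.05. Higher in brain than in liver were 18 of 38 collagens in G20, 18 in CC and 19 in NC, where 43.4%, 41% and 43.2% of all genes were called higher. Lower in brain were 13 in G20, 15 in CC and 13 in NC, where 45.8%, 43.5% and 45.8% of all genes were called lower. The shares of collagens called, 81.6% in G20, 86.8% in CC and 84.2% in NC, lay near those of all genes, which were 89.1%, 84.5% and 89.1%. Centring the arrays on the median moved the median of all genes to -0.43 in G20, -0.42 in CC and -0.45 in NC, and gave 16 collagens higher and 16 lower in G20, 16 and 19 in CC, and 16 and 16 in NC. After normexp background correction the split in NC was 8 higher and 18 lower, with a median of all genes of -0.85. The direction of single genes was shared by the 3 groups: 16 genes were called higher in brain in all 3 groups, 12 were called lower in all 3, and 10 did neither. Without the second G20 brain array, 20 were higher and 12 lower in G20. 7 genes were kept through brain alone (Col15a1, Col19a1, Col22a1, Col23a1, Col4a3, Col4a5 and Col9a1) and Col17a1 through liver alone, so that a difference in these was partly set by the filter. Of the 30 kept in both tissues, 12 were higher and 12 lower in brain in G20, 12 and 14 in CC, and 13 and 12 in NC. Shares of all genes were not set beside the counts for these 30 or under other settings.

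**Figure D2:**
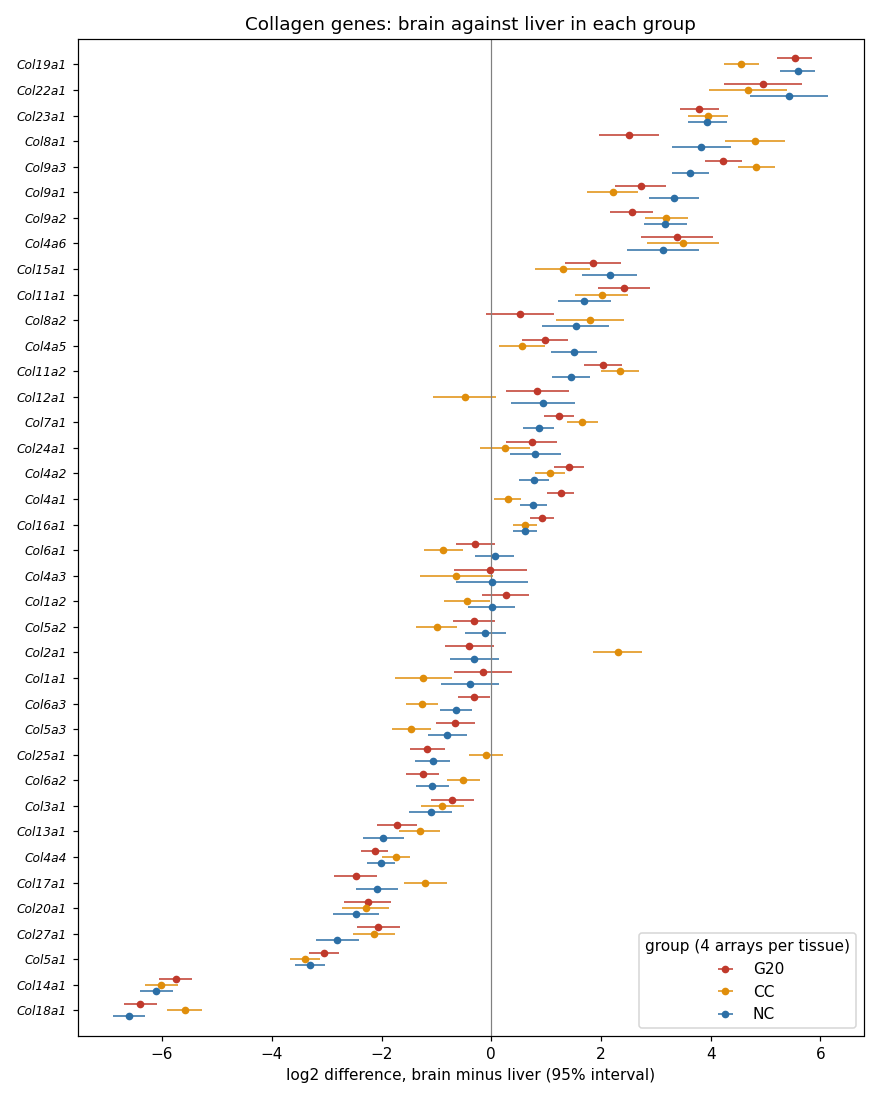
Log2 difference between brain and liver for 38 collagen genes (rows, ordered by the NC difference) in G20, CC and NC (colours), with the 95% interval of the fit over 24 arrays. Col18a1 and Col14a1 lie lowest, at -5.59 or below in every group, and Col19a1 and Col22a1 are drawn highest in NC, at 5.59 and 5.42, where no liver array had either well above background, so that their order is not measured.

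The multiplexin Col18a1 (probe at chr10:76496791-76496850, mm8) was the collagen with the largest difference between the tissues in NC. Its log2 level was 1.05, 0.23, 0.74 and 1.03 on the G20 brain arrays and 7.22, 7.12, 7.27 and 7.03 on the G20 liver arrays. It was 1.83, 2.07, 1.69 and 1.89 in CC brain and 7.54, 7.30 and 7.55 in CC liver, where 1 spot was an outlier and was dropped, and 0.49, 0.52, 0.45 and 0.75 in NC brain and 7.02, 7.30, 7.18 and 7.11 in NC liver. No brain array came near a liver array. The difference between brain and liver was -6.40 ± 0.14 in G20, -5.59 ± 0.15 in CC and -6.60 ± 0.14 in NC (SE), that is 84.2, 48.2 and 96.8 times higher in liver (limma, adjusted p = 6.5e-20, 2.6e-18 and 3.9e-20). The second Col18a1 probe gave -6.47, -5.86 and -6.36. Collagen XV, the other multiplexin, went the opposite way: Col15a1 was higher in brain by 1.85 in G20, 1.30 in CC and 2.16 in NC, with its liver spots not well above background on any NC array, where it was at least 4.20-fold higher in brain. After normexp the Col15a1 difference was -0.27 in CC and -1.40 in NC.

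Among the FACIT collagens, which bind to fibril surfaces, Col14a1 was far higher in liver. Col14a1 averaged -2.93 ± 0.28 in G20 brain and 2.83 ± 0.12 in G20 liver, -2.25 ± 0.19 in CC brain and 3.77 ± 0.21 in CC liver, and -3.19 ± 0.26 in NC brain and 2.91 ± 0.14 in NC liver (SD, n = 4). This was 53.9, 64.6 and 68.8 times higher in liver in G20, CC and NC. Of the 9 FACIT genes 7 were higher in brain and 2 lower in G20 and NC, and 6 and 2 in CC. Col19a1, a collagen known in mouse from synapse formation by interneurons, had log2 levels of -0.61, -1.16, -0.55 and -0.64 in G20 brain, -1.15, -1.26, -0.79 and -1.09 in CC brain, and -0.70, -0.46, -0.23 and -0.54 in NC brain. It was not well above background on any of the 12 liver arrays, so that it was at least 41.8-fold higher in brain in G20, at least 18.5-fold in CC and at least 45.2-fold in NC. These bounds set the mean of the brain arrays against the lowest measurable signal of the liver arrays.

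The 3 chains of collagen IX, a cartilage collagen whose chains join in 1 molecule, were each higher in brain. Col9a3 was higher by 4.23 ± 0.16 in G20, 4.83 ± 0.16 in CC and 3.63 ± 0.16 in NC (SE), with liver spots well above background on 1 G20, 1 CC and 4 NC arrays, and Col9a2 by 2.56, 3.20 and 3.18 with SE of 0.19 each. Col9a1 was higher by 2.73 in G20, at least 4.04-fold in CC and at least 8.56-fold in NC, although after normexp its NC difference was -1.08. Of the 12 cartilage and bone markers, 10 were on the array by name. In brain 6 were kept, where they summed to 0.327 to 0.433 in G20, 0.536 to 0.929 in CC and 0.260 to 0.910 in NC. Acan, Matn1, Matn3, Comp, Ibsp and Bglap2 were not kept or not on the array. Col22a1, a collagen of muscle-tendon junctions, was called higher in brain in each group. Its liver spots were well above background on 2 G20 arrays, 1 CC array and no NC array, and in NC it was at least 42.5-fold higher in brain. In CC liver its 4 arrays were not alike, at -2.88, -3.86, -5.34 and -5.31, and the 5 kept skeletal muscle markers summed to 176, 35.5, 1.22 and 1.00 on the same arrays. The part of muscle in the Col22a1 values was not tested. Col12a1 was higher in brain by 0.84 in G20 and 0.94 in NC, or -0.61 in NC after normexp, and did not pass the test in CC. The other Col12a1 probe gave -0.63 in G20 and -0.83 in NC, the opposite sign. It was well above background on 1 G20 and 4 NC brain arrays, and on 2 G20 and no NC liver arrays. Col16a1 was higher in brain by 0.92, 0.62 and 0.61, while Col20a1 was lower in brain by 2.26, 2.29 and 2.46.

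Of the 11 fibril-forming collagens 3 were higher and 4 lower in brain in G20 and NC, and 3 and 6 in CC. The main chains of collagen I, Col1a1 and Col1a2, did not pass the test between brain and liver in G20 or NC (limma, adjusted p = 0.574 and 0.150 for Col1a1, 0.224 and 0.972 for Col1a2). The other Col1a1 probe, above background on all arrays, was higher in brain by 1.04 in G20 and 1.03 in NC and lower by 0.91 in CC, so that the Col1a1 probes differed in sign in G20 and NC. In CC, Col1a1 was lower in brain by 1.24 ± 0.25. Col3a1, the chain of collagen III in soft connective tissue, was lower in brain by 0.71, 0.90 and 1.10 in G20, CC and NC (SE 0.19). Col5a1, which starts fibril assembly, was lower in brain by 3.05, 3.39 and 3.30 (SE 0.13), or 8.25, 10.5 and 9.88 times higher in liver, and Col27a1, a collagen of cartilage, was lower by 2.06, 2.14 and 2.80. Col5a3 was lower by 0.65, 1.46 and 0.80, and Col5a2 in CC alone, by 0.995. Col24a1, known from developing bone, was higher in brain by 0.74 in G20 and 0.81 in NC, or -1.31 in NC after normexp, and did not pass in CC. Col11a1 and Col11a2, chains of cartilage fibrils, were higher in brain, by 2.42, 2.01 and 1.70 for Col11a1 and by 2.04, 2.35 and 1.46 for Col11a2. After normexp the Col11a2 difference in NC was -0.08. Col2a1, the main cartilage chain, separated the groups: it was higher in brain by 2.30 ± 0.21 in CC, while its differences of -0.40 in G20 and -0.30 in NC did not pass the test (adjusted p = 0.0814 and 0.181).

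Of the 6 basement membrane chains 4 were higher and 1 was lower in brain in each group. Col4a1 and Col4a2, which form the common collagen IV network, were higher in brain by 1.27 and 1.42 in G20, 0.30 and 1.08 in CC, and 0.77 and 0.79 in NC. With arrays centred on the median, the CC difference of Col4a1 was -0.06. Col4a4, a chain of the kidney and lung network, was lower in brain by 2.13, 1.74 and 2.01, and Col4a3, its partner chain, did not pass the test in any group. Col4a5, a chain of the same network, was higher in brain by 0.98 in G20, at least 1.06-fold in CC and at least 2.81-fold in NC, or -0.37 in CC and -1.71 in NC after normexp. Col4a6 depended on the probe. The tested probe (chrX:136411815-136411874, mm8) was higher in brain by 3.40 in G20, 3.49 in CC and 3.14 in NC, and -0.30 in NC after normexp. Another Col4a6 probe (chrX:136413257-136413316) was lower in brain by 2.61, 0.89 and 2.49 and was above background on each of the 24 arrays. The first probe was above background on 4 G20, 1 CC and 2 NC liver arrays, and the 2 probes gave the gene opposite directions.

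Of the network-forming short-chain collagens, Col8a1, known from vessel walls and the cornea, was higher in brain by 2.51 ± 0.26 in G20, 4.81 ± 0.26 in CC and 3.83 ± 0.26 in NC (SE). The other Col8a1 probe gave 1.57, 0.43 and 1.45, and was well above background on 1 CC brain array and no liver array. Col8a2, the partner of Col8a1, was higher by 1.80 in CC and 1.54 in NC and did not pass in G20, at 0.53. After normexp Col8a2 was -0.12 in NC. Col7a1, the anchoring fibril chain, was higher by 1.24, 1.66 and 0.87. Collagen VI chains, which form beaded microfibrils, leaned to liver: Col6a2 was lower in brain by 1.25, 0.51 and 1.07 and Col6a3 by 0.32, 1.26 and 0.64 in G20, CC and NC, while Col6a1 was called lower in CC alone, by 0.88. Of the 4 transmembrane collagens, Col13a1 and Col17a1 were lower in brain in all 3 groups, Col13a1 by 1.72, 1.30 and 1.96 and Col17a1 by 2.47, 1.20 and 2.08. Col25a1, which is known from neurons, was lower in brain by 1.17 in G20 and 1.07 in NC on the tested probe and did not pass in CC. The other Col25a1 probe gave 0.19 in G20 and 0.21 in NC, the opposite sign. It was well above background on 3 G20 and 4 NC brain arrays, and on no G20 and 1 NC liver array. Col23a1 was higher in brain by 3.80 in G20, at least 15.1-fold in CC and at least 15.4-fold in NC, or -0.06 in NC after normexp. Brain and liver of NC and of G20 were scanned in different sessions and those of CC in the same one, so that tissue and session cannot be told apart in NC and G20.

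The comparison of G20 with NC asks whether 20 generations of cloning moved collagen expression. In G20 brain no collagen of 37 passed the test, while 1.24% of all genes were called higher and 0.536% lower. 3 were higher and 1 was lower at an unadjusted p under 0.05, namely Col11a2, Col4a6 and Col16a1 and, lower, Col9a1, where 19.3% of all genes stood under that p. The 37 log2 differences ran from -0.53 for Col8a2 to 0.62 for Col11a2, with a median of 0.04 beside 0.03 over all genes. The 95% intervals of all 37 lay between -1.14 and 1.10, so that larger differences than these were outside every interval. Col11a2 came nearest to the threshold. Its log2 levels were -0.02, 0.39, -0.16 and -0.04 in G20 brain and -0.96, -0.53, -0.22 and -0.61 in NC brain, and the groups did not overlap (limma, adjusted p = 0.0793). Without the third NC brain array it was called, at 0.74 (limma, adjusted p = 0.0457), and without the second G20 brain array the count of called collagens was again 0.

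Collagen I and III did not pass in G20 brain. Col1a1 had log2 levels of 2.95, 1.97, 2.51 and 2.62 in G20 brain and 2.44, 2.64, 3.60 and 2.48 in NC brain. The groups overlapped, with the lowest value on the second G20 array and the highest on the third NC array, where the cartilage and bone markers summed to 0.910, against 0.260 to 0.488 on the other NC brain arrays. The difference was -0.28 ± 0.25 (SE, adjusted p = 0.572). Col4a1 and Col4a2 differed by 0.16 ± 0.12 and 0.08 ± 0.12 in G20 brain, Col6a1 by -0.14 ± 0.15, Col18a1 by 0.21 ± 0.16 and Col2a1 by -0.24 ± 0.16 (adjusted p = 0.505, 0.755, 0.626, 0.505 and 0.430).

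**Figure D3:**
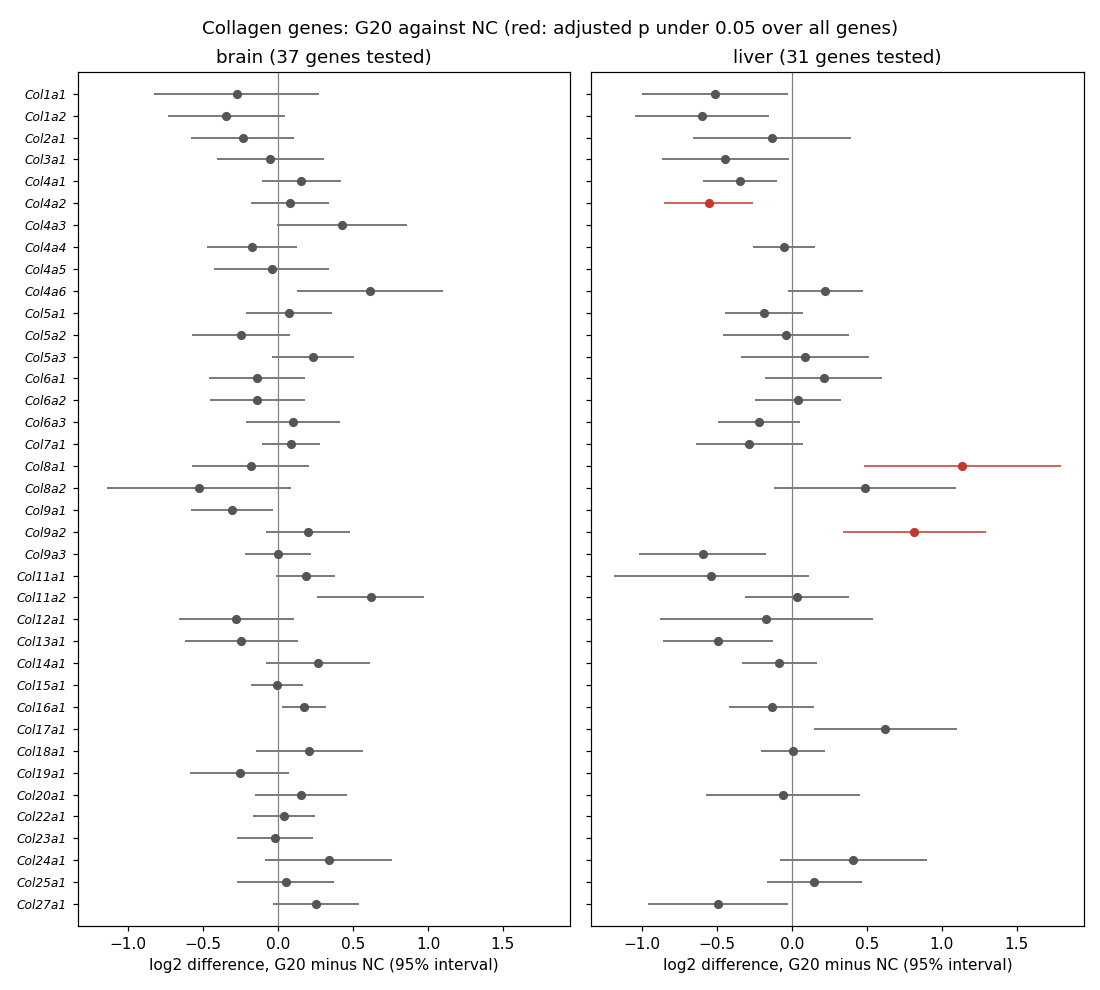
Log2 difference between G20 and NC for each collagen gene in brain (left, 37 genes) and liver (right, 31 genes), with 95% intervals. The red genes, Col4a2, Col8a1 and Col9a2 in liver, passed the test over all genes, and none did in brain.

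In G20 liver 3 collagens of 31 passed the test. Col8a1 and Col9a2 rose and Col4a2 fell, where 4.31% of all genes were called higher and 3% lower. The share of collagens was thus near that of all genes. At an unadjusted p under 0.05 stood 11, of which 3 were higher and 8 lower, where 23.7% of all genes stood, and the median log2 difference was -0.09 beside 0.03 over all genes. With arrays centred on the median no collagen was higher and 3 were lower, with quantile normalization 0 and 2, and after normexp 0 and 7, so that the split between higher and lower turned with the scaling. With the replicate number as a block no collagen was called. Counts over all genes under these settings were not set beside them, so they are not read as a result about collagens.

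Col4a2 was the collagen called lower in G20 liver. Its log2 levels were 0.14, 0.14, 0.43 and 0.54 in G20 liver and 0.64, 1.03, 0.89 and 0.94 in NC liver. All G20 arrays lay below all NC arrays, by -0.56 ± 0.13 on average (SE, 0.68-fold, limma, adjusted p = 0.0312). The call was kept in 12 of 20 other settings and the sign in all 20. Its head-to-head partner Col4a1 had 1.12, 0.92, 1.09 and 1.18 in G20 liver and 1.19, 1.64, 1.47 and 1.39 in NC liver. These groups did not overlap either, but the difference of -0.34 ± 0.11 did not pass (adjusted p = 0.0880). The second probes gave -0.46 for Col4a2 and -0.54 for Col4a1, so that all 4 probes of the pair were lower in G20 liver. In CC liver, Col4a2 had 0.74, 0.54, 0.31 and 0.28 and Col4a1 had 1.99, 1.72, 1.70 and 1.60. Against NC, the Col4a1 probes gave 0.33 and -0.08 in CC liver, and so no shared direction. The Col4a2 probes gave -0.40, which was called lower, and -0.54 in CC liver against NC. Between G20 and CC in liver they gave -0.15 and 0.08. The lower Col4a2 level against NC was thus not particular to G20.

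Col8a1 was called higher in G20 liver. Its log2 levels were -2.22, -2.52, -2.47 and -1.53 in G20 liver, -2.96, -2.82, -2.73 and -3.90 in CC liver, and -3.30, -3.92, -3.11 and -2.95 in NC liver. All G20 arrays lay above all NC arrays, by 1.14 ± 0.30 (SE, 2.20-fold, limma, adjusted p = 0.0440). After normexp the difference was -0.54, and the call was lost in 14 of 20 other settings. The second Col8a1 probe was not well above background on any liver array. Col9a2 had -1.93, -1.80, -1.58 and -1.34 in G20 liver, -2.56, -1.68, -2.11 and -2.39 in CC liver, and -2.39, -2.78, -2.73 and -2.01 in NC liver, a difference of 0.82 ± 0.22 between G20 and NC (SE, 1.76-fold, limma, adjusted p = 0.0449). It was -0.32 after normexp and was likewise lost in 14 of 20 settings. Col9a3, whose chain joins that of Col9a2, differed by -0.60 ± 0.19 (adjusted p = 0.0865) and was well above background on 1 G20 array and 4 NC arrays. G20 liver arrays had 75th percentiles of 439 to 561 in processed signal, against 276 to 341 on NC liver arrays, and the part of this in dim genes was not tested.

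**Figure D4:**
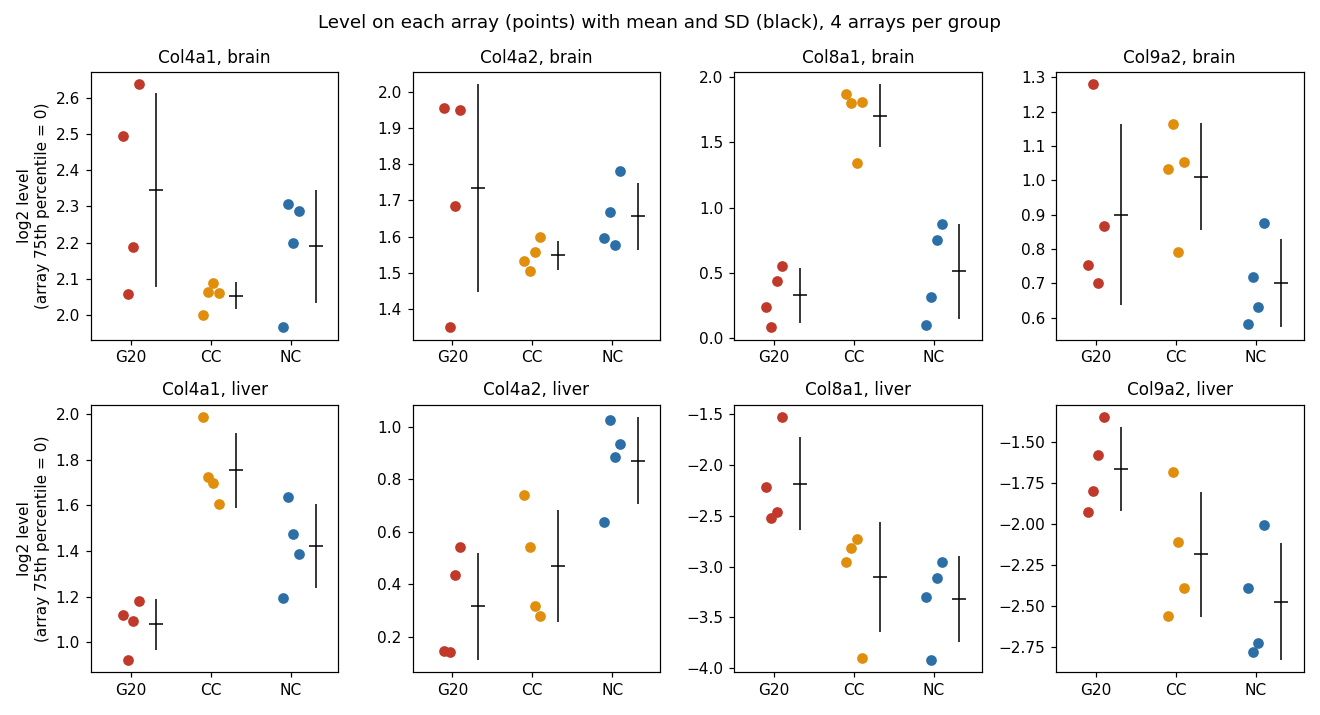
Log2 level on each array (points, with mean and SD in black) of Col4a1, Col4a2, Col8a1 and Col9a2 in brain (top) and liver (bottom) for G20, CC and NC, each panel with a scale of its own. In liver the G20 points of Col4a2 lie below and those of Col8a1 and Col9a2 above all NC points, and in brain the G20 and NC points of these genes overlap.

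Collagen I and III chains gave values below NC in G20 liver without a call. Col1a2 had log2 levels of 2.70, 2.82, 2.94 and 3.04 in G20 liver and 3.35, 3.20, 3.51 and 3.83 in NC liver, without overlap, a difference of -0.60 ± 0.20 (SE, adjusted p = 0.0994). Col1a1 differed by -0.51 ± 0.22 and Col3a1 by -0.44 ± 0.19, both with overlapping groups (adjusted p = 0.186 and 0.187). None of the 11 fibril-forming genes passed, and their median was -0.19. The 6 hepatic stellate markers summed to 10.7 to 14.5 in G20 liver and 10.9 to 13.7 in NC liver. Of the 8 meningeal fibroblast markers Foxc1, Foxd1, Slc22a6, Crabp2 and Nov were not kept in liver. The 3 kept summed to 96.3 to 118 in G20 liver and 59.4 to 178 in NC liver. All 8 summed to 11.4 to 19.6 in G20 brain, so that the liver sum is not read as a measure of fibroblasts. Mesothelium markers summed to 1.69 to 1.87 in G20 liver and 2.11 to 2.75 in NC liver, without overlap. The part of stellate and mesothelial cells in collagen values was not tested. Col18a1, Col6a1 and Col2a1 differed by 0.01 ± 0.10, 0.21 ± 0.18 and -0.13 ± 0.24 (adjusted p = 0.976, 0.502 and 0.780).

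Whether G20 moved collagens differently in brain and liver was tested as the difference of differences. Of 30 collagens 1 was called, Col8a1, and it was lower, where 2.15% of all genes were called higher and 1.69% lower. The difference between G20 and NC was -0.18 in brain and 1.14 in liver for Col8a1, and the brain value minus the liver value was -1.32 ± 0.37 (SE, limma, adjusted p = 0.0456), or 0.33 after normexp. The call was lost in 17 of 30 other settings. These were quantile normalization, normexp, no filter, and leaving out G20 brain array 1, 2 or 3, CC brain array 1, 2 or 4, NC brain array 2, 3 or 4, G20 liver array 1 or 4, or NC liver array 1, 2 or 3. With arrays centred on the median 2 collagens were higher and 1 lower. With group and replicate number as a block 4 were called, Col8a1 and, higher, Col4a1 at 0.50, Col4a2 at 0.63 and Col27a1 at 0.75. This block joins brain and liver arrays of the same animal in NC, per the labels, and of the same number in G20. Without the second G20 brain array, Col4a1 and Col4a2 were called, at 0.59 and 0.76. The medians over 30 collagens and over all genes were 0.24 and -0.01.

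Comparisons with CC gave many collagen calls among many calls overall. In CC brain 13 collagens of 37 were higher than in NC and 7 lower, where 41.5% of all genes were called higher and 27.8% lower. In CC liver 6 of 31 were higher and 5 lower, where 19.7% and 21% of all genes were called. Between G20 and CC, 8 collagens were higher and 11 lower in brain, where 28.6% and 39% of all genes were called, and 4 were higher and 10 lower in liver, where 24.6% and 20.4% of all genes were called. Without the second G20 brain array, 12 were higher and 10 lower between G20 and CC in brain. These comparisons share arrays: those of CC enter all 4, and those of G20 and NC also enter the comparison of G20 with NC. With arrays centred on the median the counts were 16 and 5 in CC brain, 8 and 4 in CC liver, and 5 and 17 for G20 against CC in brain, with the median of all genes at 0.25 in CC brain and -0.24 for G20 against CC in brain. After normexp they were 8 and 0 in CC brain, 0 and 5 for G20 against CC in brain, and 0 and 2 for the same in liver. With the values of the authors' deposited matrix none of 36 collagens in brain or 30 in liver was called by limma for G20 against CC in brain or liver or for CC against NC in brain, and 3 were for CC against NC in liver, all lower. The counts under other settings stand without those over all genes and are not read as particular to collagens.

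Probes of 1 gene moved apart in the CC comparisons. Among genes with at least 2 probes well above background on all 8 arrays compared, the median spread between the log2 differences of their probes was 0.10 over 13 genes for G20 against NC in brain and 0.12 over 8 genes in liver, and 0.39 over 10 genes for CC against NC in brain and 0.46 over 7 genes in liver. The spread was over 0.5 in 1 of 13, 0 of 8, 4 of 10 and 3 of 7 genes. Col1a1 had the largest spread. In CC brain its tested probe had log2 levels of 2.43, 2.63, 2.62 and 2.76, against 2.44, 2.64, 3.60 and 2.48 in NC, while its other probe (chr11:94766828-94766887, mm8) had -1.60, -1.58, -1.76 and -1.60 in CC and 0.13, 0.31, 1.25 and 0.14 in NC. The Col1a1 probes thus gave -0.18 and -2.09 for the same arrays and the same gene, and CC values of single probes are given below with that in view.

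**Figure D5:**
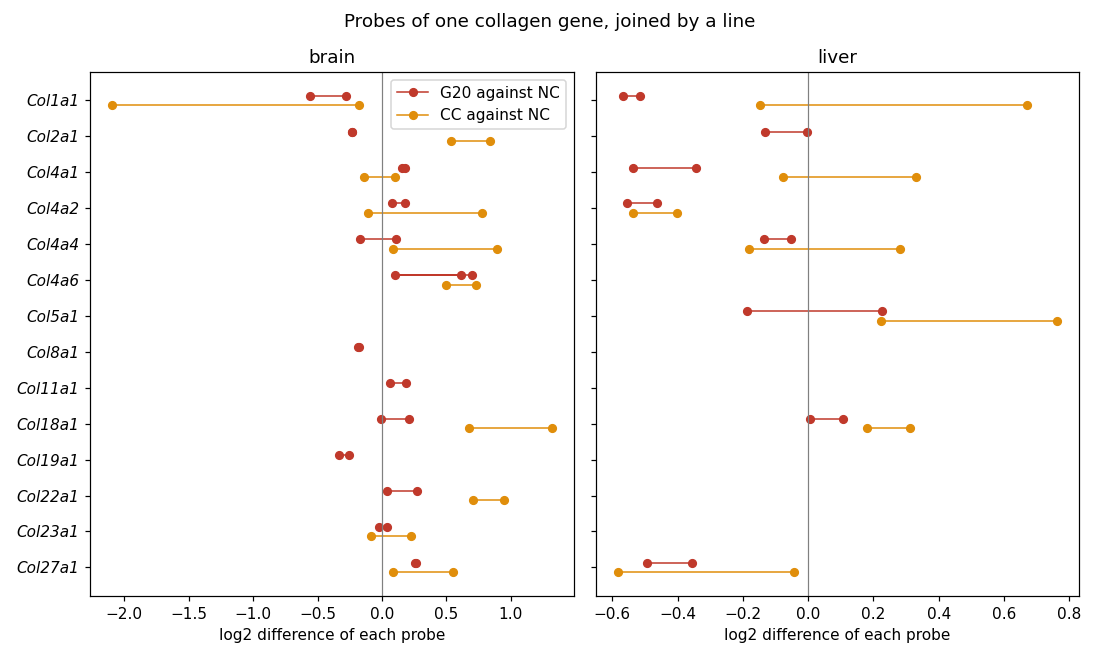
Log2 difference of each probe (points joined by a line for 1 gene) for G20 against NC and CC against NC in brain (left) and liver (right), for collagen genes with at least 2 probes well above background on all arrays compared. The widest line is that of Col1a1 in CC brain, from -2.09 to -0.18.

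In CC brain the collagens with a call and more than 1 such probe included Col18a1, higher by 1.32 and 0.68 on its probes, Col22a1, at 0.71 and 0.95, and Col2a1, at 0.53 and 0.83. Col18a1 had 1.83, 2.07, 1.69 and 1.89 in CC brain, above every G20 value (0.23 to 1.05) and every NC value (0.45 to 0.75). Others called higher in CC brain were Col8a1 by 1.19, Col9a3 by 1.11, Col14a1 by 0.95, Col7a1 by 0.77, Col13a1 by 0.70, Col11a2 by 0.63, Col6a2 by 0.58, Col9a2 by 0.31, Col16a1 by 0.30 and Col11a1 by 0.28. Of these the Col9a2 call was lost in 12 of 20 other settings, the Col11a1 call in 5 and the others in 3 or fewer. The other Col8a1 probe, well above background on 1 CC and 4 NC brain arrays, gave -0.44, the opposite direction. Called lower were Col4a5 by 1.35, with 1 of 4 CC arrays well above background, Col12a1 by 1.17, Col15a1 by 0.67, Col19a1 by 0.59, Col6a1 by 0.51 and Col5a2 and Col9a1 by 0.42 each. The Col5a2 call was lost in 6 of 20 other settings, the Col9a1 call in 4 and the others in 2 each. Between G20 and CC in brain the same arrays gave, for example, -1.11 for Col18a1, -1.11 for Col9a3 and -1.38 for Col8a1, with 0.27 on the other Col8a1 probe. Further calls were 0.51 for Col5a3, 0.47 for Col20a1, -0.80 for Col8a2, -0.46 for Col1a2 and 0.29 for Col4a1, with 0.08 on the other Col4a1 probe. Of these Col4a1 was lost in 16 of 20 other settings, Col1a2 in 10, Col8a2 in 5, Col20a1 in 4 and Col5a3 in 2. Col4a3 was at least 1.49-fold higher in G20 brain, since no CC array had it well above background. Several marker lists stood apart in CC brain too. Pericyte markers summed to 11.4 to 11.7 in CC brain, above all G20 arrays, which began at 8.41, and the 8.04 to 9.12 of NC brain. Endothelial markers summed to 17.8 to 19.9 in CC brain, against 13.6 to 16.2 in G20 brain and 14.4 to 16.9 in NC brain. Meningeal fibroblast markers summed to 21.1 to 23.2 in CC brain, against 11.4 to 19.6 in G20 brain and 18.4 to 20.5 in NC brain. The 4 kept skin markers summed to 11.6 to 13.7 in CC brain, against 5.66 to 7.81 in G20 brain and 5.90 to 7.33 in NC brain, and neuron markers to 108 to 124 in CC brain, against 89.8 to 105 in G20 brain and 93.1 to 98.8 in NC brain. The part of these cells in the collagen values was not tested.

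In CC liver Col2a1 fell furthest. Its tested probe had log2 levels of -1.80, -2.22, -1.71 and -2.39 in G20 liver, -3.29, -3.48, -3.61 and -4.29 in CC liver, and -1.88, -1.40, -2.23 and -2.06 in NC liver. CC lay below all arrays of both other groups, by -1.77 ± 0.24 against NC (SE, limma, adjusted p = 0.00016), and the second Col2a1 probe gave -2.87 and was not well above background on any CC liver array. Col14a1 was higher in CC liver by 0.86, Col1a1 by 0.67 on the tested probe and -0.15 on the other, Col1a2 by 0.56, Col6a3 by 0.52, Col4a1 by 0.33 on the tested probe and -0.08 on the other, and Col18a1 by 0.31. Of these calls Col1a2 was lost in 17 of 20 other settings, Col4a1 in 12, Col18a1 in 11 and Col1a1 in 10. Col14a1 and Col6a3 were lost in 2 each. Col4a6 was lower by 0.87 on the probe that stood for it in liver, the one at chrX:136413257-136413316 that was lower in brain than in liver, while the probe used between tissues gave 0.14 with 1 CC and 2 NC arrays above background. Col25a1 was lower by 0.71 with 1 of 4 CC arrays well above background. Col27a1 was lower by 0.58, with -0.04 on its other probe, and Col4a2 by 0.40, with -0.54 on its other probe. The Col27a1 call was lost in 15 of 20 other settings and the Col4a2 call in 7. Between G20 and CC in liver, Col1a1 and Col1a2 were lower in G20 by 1.19 and 1.16, Col14a1 by 0.94, Col6a3 by 0.74, Col4a1 by 0.68, Col13a1 by 0.53, Col5a2 by 0.51, Col16a1 by 0.43, Col5a1 by 0.41 and Col18a1 by 0.30. Other probes well above background on all these arrays gave -0.42 for Col1a1, -0.46 for Col4a1, -0.54 for Col5a1 and -0.07 for Col18a1. Higher in G20 were Col2a1, Col4a6, Col8a1 and Col25a1, by 1.64, 1.09, 0.92 and 0.86, with 0.22 on the Col4a6 probe used between tissues. Among the calls between G20 and CC in liver, Col5a2 was lost in 14 of 20 other settings. Col18a1 was lost in 9, Col13a1 in 7, Col8a1 in 5 and each other call in 3 or fewer. The 6 stellate markers summed to 15.6 to 19.6 in CC liver, above the 10.7 to 14.5 of G20 liver and the 10.9 to 13.7 of NC liver. The 7 endothelial markers summed to 14.2 to 15.2 in CC liver, against 11.3 to 12.5 in G20 liver and 11.3 to 12.3 in NC liver. The 2 kept cartilage and bone markers summed to 0.696 to 1.83 in CC liver, where Col2a1 was lower, against 0.196 to 0.509 in G20 liver and 0.324 to 0.502 in NC liver. The 4 kept hepatocyte markers summed to 599 to 654 in CC liver, against 782 to 949 in G20 liver and 850 to 911 in NC liver, and the muscle markers stood at 176 and 35.5 on 2 CC arrays, as given for Col22a1. The 1 kept neuron marker stood at 0.347 to 1.09 in CC liver, against 0.142 to 0.170 in G20 liver and 0.140 to 0.186 in NC liver. The part of these cells in the collagen values was not tested.

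Genes that make, fold, cut or bind collagens were counted for G20 against NC as well, where 1.24% of all genes were called higher and 0.536% lower in brain, and 4.31% and 3% in liver. The alternative settings were compared for collagens alone. How far the calls of these genes and of the laminins below depend on the processing was not tested. Of 17 collagen-modifying enzymes and chaperones 1 was higher in G20 brain, P4ha2, a prolyl hydroxylase subunit, by 0.76 ± 0.15 (limma, adjusted p = 0.0337), and none passed in G20 liver. Of the procollagen proteinases and crosslinkers 0 of 11 passed in G20 brain and 1 of 9 in G20 liver, Pcolce2, an enhancer of procollagen cleavage, which fell by 1.39 ± 0.17 (limma, adjusted p = 0.00104). Among 11 genes of collagen degradation Timp3, an inhibitor of metalloproteinases, fell in both tissues, by 0.42 ± 0.09 in G20 brain and 0.72 ± 0.09 in G20 liver (limma, adjusted p = 0.0395 and 0.00119), and the collagenase Mmp13 fell in G20 liver by 1.28 ± 0.31. Of 7 collagen receptors the integrin chain Itga10 was lower in G20 brain by 0.55 and Itga11 was higher in G20 liver by 1.67 ± 0.20 (limma, adjusted p = 0.00103). Of 13 fibril-associated proteoglycans and matrix proteins none passed in G20 brain, and Sparc, a collagen-binding glycoprotein, fell in G20 liver by 0.61 ± 0.09.

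Basement membrane partners of collagen IV held the laminin chains. In G20 brain 2 of 12 were higher and 1 was lower, where 1.24% and 0.536% of all genes were called. Lama3 was higher by 0.74 and Lamb3 lower by 0.83 (limma, adjusted p = 0.00674 and 0.00985). In G20 liver, where 4.31% and 3% of all genes were called, none of 12 was higher and 2 were lower, Lama4, the chain of vessel walls, by 1.01 ± 0.11 (limma, adjusted p = 0.000568) and Lama3 by 0.96. The medians of the 12 genes were 0.00 in G20 brain and 0.08 in G20 liver, beside 0.03 over all genes in each tissue.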

How the data were processed

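Single-colour arrays measured RNA of newborn brain and liver, 4 arrays per group. Per the file headers, the intensity values are processed signals of Feature Extraction 9.5.3.1 (Agilent), less background and not scaled across arrays, and the flags (well above background, outlier) are values of another kind written by the same program. Positions are those of mm8, per the file headers. The authors' deposited matrix holds linear intensity values. Set against the scanner values, its NC and G20 columns differed by about 1 factor per array (SD of the log2 ratio 0.0103 to 0.0554) and its CC columns probe by probe (SD 0.627 to 0.657), and its column medians ran from 223.6 to 489.5. Its scale is linear, its centring stays unknown, and it served as an alternative.

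The log2 of the deposited processed signal, minus the array's 75th percentile, was used, without outlier spots. For each gene name the brightest probe on average stood for the gene. limma 3.58.1 in R 4.3.3 (with the data.table package, version 1.17.8) was fitted to the 12 arrays of a tissue, and to all 24 for differences between tissues, with Benjamini-Hochberg adjustment over all 18299 (brain), 16364 or 16365 (liver), 19881 (tissues) or 14766 (difference of differences) genes. The fit was tested on simulated data. Same-numbered arrays of different groups correlated at -0.14 to 0.10 after group means were removed and were not paired. Brain and liver arrays of NC and CC come from the same animals per the labels, and same-numbered ones correlated at 0.02 to 0.17. The main fits across tissues did not use this pairing, which entered in the replicate block alone.

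Members and gene lists were chosen with earlier results of these data known. Every collagen called within a tissue or between the G20 differences was named, with Col1a1, Col1a2, Col3a1, Col4a1, Col4a2, Col6a1, Col18a1 and Col2a1 in any case, and the members of the other lists called for G20 against NC, of which 1 result is not reported here. Alternatives were median centring, quantile normalization, normexp (offset 50), no filter, the mean of probes, a replicate block, only the compared arrays, the deposited matrix and leaving out each array.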

Additional observations from a re-analysis of the deposited data

Results flagged for a closer look

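Of 185 groups of 4 values examined over the collagens that were called or named in any case, 14 held an array whose gap to the nearest other was above Dixon's critical value as a share of the group's range, beside about 1 in 20 that chance gives. Genes measured on the same arrays are not independent, so the 14 were not tested against that rate. 4 of these lay on the second G20 brain array and were low: Col12a1 at a log2 level of -3.01 (others -2.18 to -2.10), Col19a1 at -1.16 (others -0.64 to -0.55), Col5a2 at -1.73 (others at -1.03 or above) and Col6a1 at -0.82 (others -0.25 to -0.16). In G20 liver Col16a1 stood at 0.69 on the fourth array, and Col25a1 at -3.49 and Col6a3 at 1.18 on the first. In CC brain Col8a1 stood at 1.34 on the third array. In CC liver Col13a1 stood at -0.31 on the second array, Col16a1 at 0.57 on the fourth and Col9a3 at -3.86 on the first. In NC brain Col15a1 stood at -3.47 on the second array, where the other 3 lay within -3.41 to -3.41, and Col1a1 at 3.60 on the third. In NC liver Col6a1 stood at -0.069 on the fourth array.

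The G20 effect on Col8a1 differed between brain and liver by -1.32 in the test of the difference itself. The call was lost in 17 of 30 other settings, and the value was 0.33 after normexp.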

How the results depend on the processing

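The number of collagens called changed with the background correction. With normexp it was 8 for CC against NC in brain, 5 for G20 against CC in brain, 7 for G20 against NC in liver, 0 for CC against NC in liver and 2 for G20 against CC in liver. With the deposited matrix, whose CC values differ from the scanner's probe by probe, these counts with CC were 0 and 0 in brain, and 3 for CC against NC and 0 for G20 against CC in liver. For G20 against NC in liver, where 3 were called, 1 was called without the filter, 6 with only the compared arrays and 0 with the replicate number as a block. For CC against NC in liver 6 were called with the mean of probes and 5 with the replicate block. For the difference of differences, where 1 was called, the counts were 3 with median centring, 0 with quantile normalization, 0 without the filter, 2 with the mean of probes and 4 with the replicate block. The block moved no other count by over 1.5 times. Within a tissue it joined same-numbered arrays of different groups, which the numbers do not pair. Across tissues it joined brain and liver arrays of the same group and number, which the labels pair in NC and CC alone. Leaving out each array gave 0 to 1 calls for G20 against NC in brain, 19 to 23 for CC against NC in brain, 15 to 22 for G20 against CC in brain, 0 to 4 for G20 against NC in liver, 5 to 11 for CC against NC in liver, 11 to 17 for G20 against CC in liver, 30 to 32, 31 to 35 and 32 to 33 between tissues in G20, CC and NC, and 0 to 3 for the difference of differences. In liver no collagen was called for G20 against NC without the second G20, the second NC or the third NC array. The cause of these shifts was not tested. Counts over all genes under the same settings were not set beside them, so the shifts are not read as particular to collagens.

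For the 68 calls within a tissue or in the difference of differences, 1054 of 1367 values under the alternatives kept the call and 46 turned in sign. Differences between brain and liver are not in this tally, and those that turned are given beside their genes. With normexp these were as follows. For the G20 difference in brain minus that in liver, the log2 differences were Col8a1 0.33. For CC against NC in brain, the log2 differences were Col15a1 0.62, Col4a5 0.76, Col5a2 0.0045 and Col9a1 0.59. For G20 against CC in brain, the log2 differences were Col15a1 -0.18, Col20a1 -0.43, Col4a3 -0.55 and Col4a5 -0.26. For G20 against CC in liver, the log2 differences were Col18a1 0.26, Col25a1 -0.72, Col2a1 -0.027, Col4a6 -0.064, Col5a1 0.0021 and Col8a1 -0.30. For G20 against NC in liver, the log2 differences were Col8a1 -0.54 and Col9a2 -0.32. With the deposited matrix they were as follows. For CC against NC in brain, the log2 differences were Col4a5 0.42, Col7a1 -0.059 and Col9a3 -0.098. For G20 against CC in brain, the log2 differences were Col12a1 -0.17, Col14a1 0.067, Col20a1 -0.078, Col4a5 -0.50, Col6a1 -0.091, Col7a1 0.14 and Col9a3 0.088. For CC against NC in liver, the log2 differences were Col14a1 -0.13, Col18a1 -0.080, Col1a1 -0.75, Col1a2 -0.67, Col25a1 0.21, Col4a1 -0.35, Col4a6 0.15 and Col6a3 -0.30. For G20 against CC in liver, the log2 differences were Col13a1 0.16, Col14a1 0.065, Col16a1 0.19, Col18a1 0.081, Col1a1 0.25, Col1a2 0.091, Col25a1 -0.15, Col4a1 0.014, Col5a2 0.16 and Col6a3 0.082. With the mean of probes Col18a1 was 0.021 for G20 against CC in liver.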

Other observations

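Col4a3bp, the older name of Cert1, a ceramide transfer protein, was lower in brain than in liver by 0.56 in G20, 0.38 in CC and 1.01 in NC on the log2 scale. Its Col4a3bp probe differed between G20 and NC by 0.36 in brain and -0.09 in liver, neither of which passed (limma, adjusted p = 0.140 and 0.506).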
